A study of Caenorhabditis elegans with 2 samples.

Results

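The gene daf-19 encodes the only RFX-type transcription factor of Caenorhabditis elegans, and it was chosen by the signal of its peak in a map of UNC-39 binding. It is 1 of 19985 protein-coding genes in the Ensembl annotation of WBcel235, the assembly also called ce11. The gene and the 10 kb on either side of it held 14 of the 30000 summits of the authors' pooled peak list and 1 of the 140 summits of their thresholded list. The lists of the single replicates placed 11 of 30000 summits (replicate 1) and 10 of 24978 summits (replicate 2) in the same stretch. Because the gene was selected on these signals, its signals and ranks are given as a description and no test was run on them.

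DAF-19 binds a DNA element called the X-box in the promoters of genes for building sensory cilia, and worms without it have no cilia and form dauer larvae constitutively. The gene makes long and short proteins from different 5' ends. The short isoform DAF-19C activates genes of ciliogenesis, the long isoforms DAF-19A and DAF-19B act in neurons without cilia, and a further isoform acts in IL2 neurons and neurons of the male. UNC-39 is a homeodomain protein of the SIX4/5 family that acts in mesoderm and in neuron identity and migration.

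The data come from ChIP-seq against eGFP-tagged UNC-39 in 2 biological replicates of whole L2 larvae, of pooled males and females, which form 1 group. Strain OP186 has the unc-119 allele ed3 on chromosome III and the transgene insertion wgIs186, which carries the tagged unc-39, and both replicates share this genotype. There was no second condition, and the control library was not analysed here. The lists give no read counts, so depth is unknown, and in whole larvae binding in few cells and weak binding in many cells cannot be told apart.

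The gene, WBGene00000914, lies on the minus strand at chrII:10157520-10169346 (ce11), a span of 11827 bp. Its 5 annotated transcripts start at 5 positions. Transcripts a and b start 1 bp apart at the outermost 5' end, base 10169346, and have coding sequences of 780 and 805 codons. Transcript d starts 4894 bp further downstream and has 661 codons. Transcript c, the shortest of the 5 in codons, starts 7673 bp downstream and has 622 codons. The model of transcript e starts 5770 bp downstream directly at a start codon, with 0 bases of 5' UTR, so its 5' end may not be a mapped start. With 5' ends over 1000 bp apart taken as separate, these make 3 groups, a with b, d with e, and c alone.

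The strongest summit lay upstream of a and b, and its sequence is shown because this is the region that put daf-19 in the thresholded list. Sequences are from the NCBI RefSeq genome of WBcel235 and run 5' to 3' along the strand of daf-19. Capitals mark CACACACA, GAGAGAGA and the X-box, a consensus of 14 letters given here by its name, on either strand, so that TCTCTCTC is a match of GAGAGAGA. The first is 300 bases of the strongest peak (chrII:10169414-10169713), all of it upstream of the outermost 5' end. The second is 200 bases around a weaker summit in intron 2 of a and b (chrII:10166362-10166561), shown because an exact X-box lies beside the summit. The third is 200 bases around a summit upstream of d (chrII:10164478-10164677), shown for comparison with the strongest.
strongest summit, upstream of a and b: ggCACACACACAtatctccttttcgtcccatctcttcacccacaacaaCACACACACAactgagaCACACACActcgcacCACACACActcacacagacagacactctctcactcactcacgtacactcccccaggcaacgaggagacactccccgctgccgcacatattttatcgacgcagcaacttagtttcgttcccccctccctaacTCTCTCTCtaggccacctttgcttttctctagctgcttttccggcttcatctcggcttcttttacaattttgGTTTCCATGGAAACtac
summit in intron 2: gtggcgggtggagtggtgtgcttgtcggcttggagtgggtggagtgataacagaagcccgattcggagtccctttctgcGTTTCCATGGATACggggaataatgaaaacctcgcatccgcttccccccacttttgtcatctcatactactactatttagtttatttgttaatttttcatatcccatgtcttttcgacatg
summit upstream of d: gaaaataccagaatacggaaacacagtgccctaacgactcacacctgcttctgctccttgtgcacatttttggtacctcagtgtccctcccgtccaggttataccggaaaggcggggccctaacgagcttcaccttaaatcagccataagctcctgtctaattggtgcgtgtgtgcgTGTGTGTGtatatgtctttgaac

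The first sequence holds 6 matches of CACACACA, some of them overlapping, 1 of GAGAGAGA and 1 exact X-box, the intron 2 sequence holds only the X-box, and the sequence upstream of d holds 1 CACACACA, which reads TGTGTGTG on this strand.

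UNC-39 signal around daf-19 was concentrated at 1 place. In the pooled list the strongest summit, at base 10169583 in a peak at chrII:10169401-10169764, had a signal of 68.8 and ranked 24 of 30000. It was 237 bp upstream of the outermost 5' end. In replicate 1 the strongest summit had a signal of 31.1, ranked 40 and was 197 bp upstream of that 5' end, and in replicate 2 it had a signal of 33.1, ranked 69 and was 219 bp upstream. The replicate summits were 40 and 18 bp from the pooled one, so all lists placed the peak at the same promoter. Signal is the authors' enrichment value per peak and is compared here only within a list.

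All other summits of the stretch were weaker. In the pooled list those at 10158629 and 10168029, inside the gene, were still in the top 6.85% and 7.44%. The second strongest summit of the stretch had a signal of 26.7 in the pooled list (rank 2056), 12.8 in replicate 1 (rank 7485) and 12.3 in replicate 2 (rank 4824). The strongest was therefore 2.58 times the second in the pooled list, 2.43 times in replicate 1 and 2.69 times in replicate 2. The pooled summits other than the strongest, in the gene and its flanks together, had signals down to 14.2 with a median of 16.1. The median over the whole list was 17.0. In the replicates the medians of the others were 9.8 and 10.3, beside 10.4 and 9.5 over the lists.

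**Figure D1:**
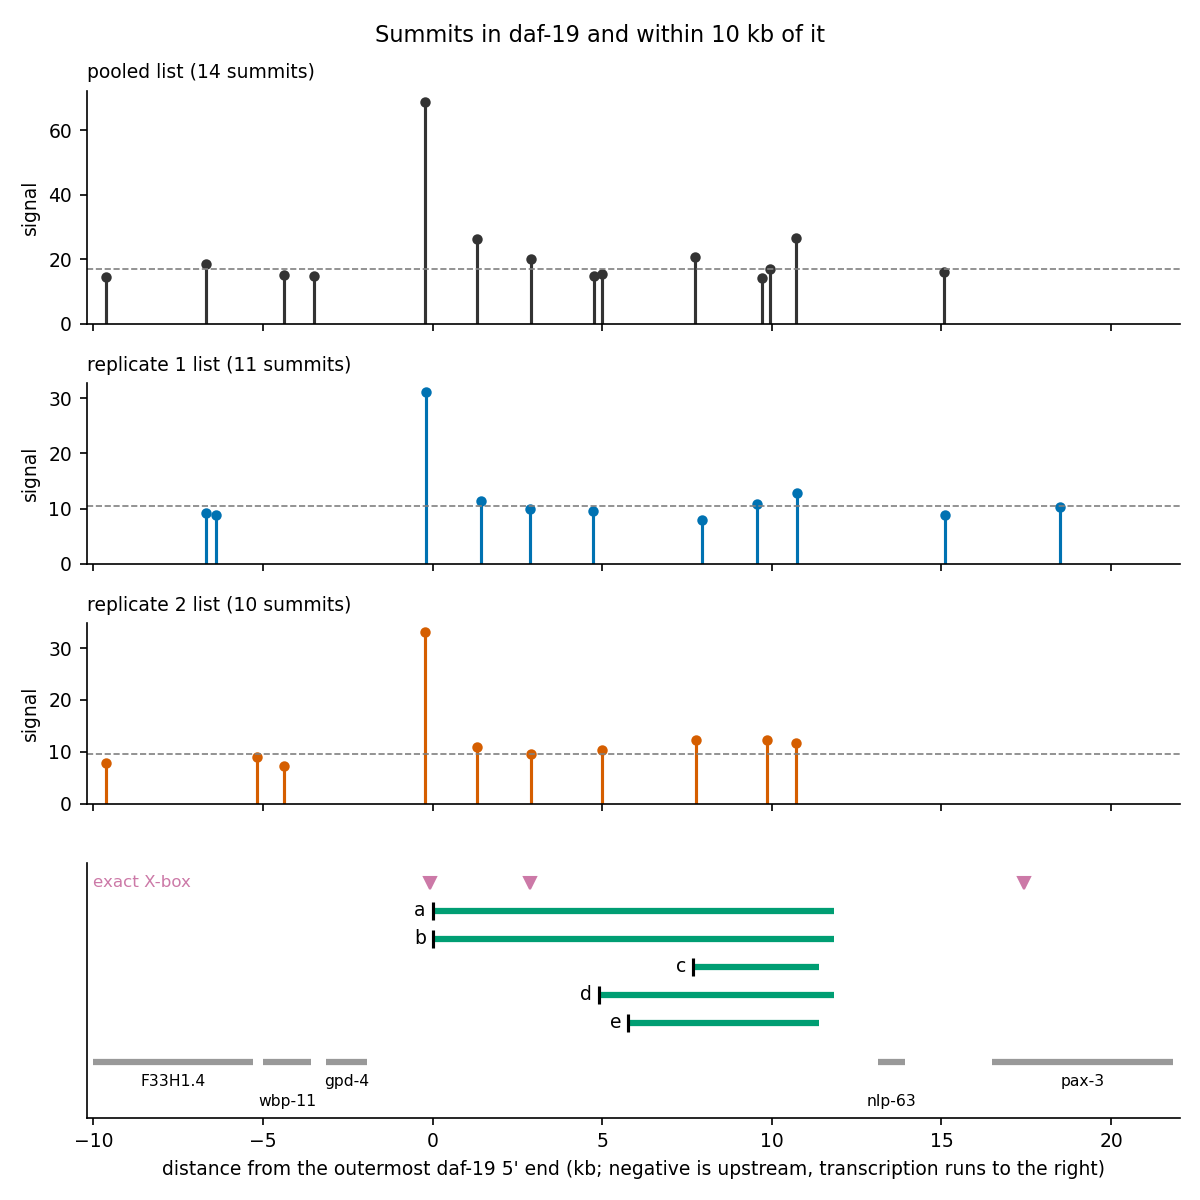
Signal of each summit (vertical axes, the authors' value, on a separate scale for each list) against distance from the outermost daf-19 5' end in kb, with transcripts a to e, neighbouring genes and exact X-box matches below. The dashed line is the median signal of the list, and in each panel 1 summit just upstream of a and b stands above all others.

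The inner 5' ends had low signals by comparison. At the 5' end of c, a pooled summit 72 bp downstream in the 5' UTR had a signal of 20.6 and ranked 7476. Transcript c shares its letter with DAF-19C, but which annotated transcript makes which protein isoform was not examined here. In replicate 2 the summit there was 79 bp from the 5' end, with a signal of 12.3 and rank 4824, the second strongest of its stretch. In replicate 1 the nearest summit was 277 bp away with a signal of 7.9 and rank 29026. The replicates thus put this 5' end at different places in their lists, above the median in replicate 2 and near the bottom in replicate 1.

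At the 5' end of d the pooled list had a summit 100 bp downstream with a signal of 15.5 (rank 19769) and another 125 bp upstream with 14.8 (rank 22167). Replicate 1 had a summit 156 bp upstream with a signal of 9.6, and replicate 2 had one 111 bp downstream with 10.3. The pooled pair was therefore split, with each member matched in 1 replicate only. For e the nearest summit was 776 bp away in the pooled list, 1032 bp in replicate 1 and 765 bp in replicate 2. The thresholded list had no summit within 1000 bp of d, e or c.

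Inside the gene 8 pooled summits were found, 5 lay upstream of it and 1 lay downstream. Of those inside, summits at bases 10158629, 10159401 and 10159625 lay in coding exons shared by all transcripts, with signals of 26.7, 17.1 and 14.2. A pair lay in intron 2 of a and b, at 10168029 with a signal of 26.3 (rank 2232) and at 10166461 with 20.2 (rank 8168). These introns are upstream of d, e and c. The summit 100 bp downstream of d was in coding sequence of b and d. Of all 14 summits, 7 were above the list median, as were 4 of 11 in replicate 1 and 7 of 10 in replicate 2.

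Only some of the weaker summits recurred. Within 100 bp, 6 of the 14 pooled summits had a partner in replicate 1 and 9 had one in replicate 2. Partners in both were found for 3, the strongest, the coding exon summit at 10158629 and the intron 2 summit at 10166461. For the coding exon summit the partners had signals of 12.8 and 11.7, and for the intron 2 summit 9.9 and 9.5. The summits with no partner in either list were those at 10159625 and 10172845, with pooled signals of 14.2 and 14.8. The pooled list was made from the replicates' reads, so a shared summit is not an independent observation.

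**Figure D2:**
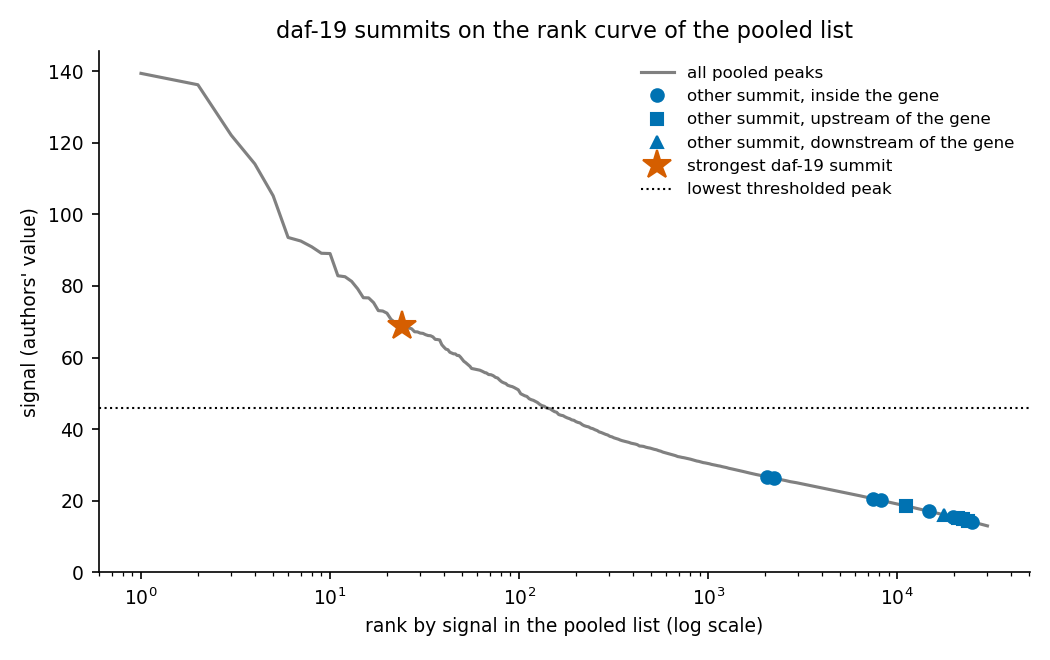
Signal against rank in the pooled list (grey line, log scale on the horizontal axis) with the 14 summits of the daf-19 stretch marked. The strongest summit, at 68.8, is above the lowest thresholded peak at 45.9 (dotted line), and the other 13 lie between 14.2 and 26.7.

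Summits were somewhat dense around daf-19, at 0.44 per kb in the pooled list, where the median over genes with their flanks was 0.298 and 14.4% of genes were at or above daf-19. In replicate 1 the density was 0.346 per kb beside a median of 0.3, and in replicate 2 it was 0.314 beside 0.247. There 34.9% (replicate 1) and 30.3% (replicate 2) of genes were at or above daf-19. The contrast between strongest and second summit was less common. Its upper value is the signal by which daf-19 was chosen, so a high ratio was partly fixed by that choice. The shares below are over all genes, and genes with a thresholded summit were not compared separately. In the pooled list 154 of 19565 genes (0.787%) had a ratio of 2.58 or more in such a stretch, and the median ratio was 1.16. In replicate 1, 0.443% of genes were at or above the ratio of daf-19, and in replicate 2 1.06% were. Stretches of neighbouring genes share peaks, so these shares do not count independent places.

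The limit of 10 kb kept or left out only weaker summits than the strongest. In the pooled list the farthest summit kept on the 5' side was 9643 bp from the gene with a signal of 14.4, and the next outside was 10252 bp away with 14.2. On the 3' side the values were 16.1 at 3258 bp and 18 at 11121 bp. Replicate 1 had a stronger summit just outside, 11570 bp from the 3' side, with a signal of 18.2 (rank 1144). Replicate 2 likewise had one 10253 bp from the 5' side, with a signal of 13.5 (rank 3220). Each exceeded every summit of its own list within the stretch but the strongest.

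Among protein-coding genes, daf-19 ranked 13 of the 10665 with a pooled summit within 1000 bp of a 5' end, taking the highest such signal. It ranked 24 of 10590 in replicate 1 and 42 of 9276 in replicate 2. The median gene had signals of 17.9, 11 and 10 in the 3 lists.

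The daf-19 peak had high ranks in both replicates, which was not general over the whole thresholded list. Among its peaks of highest pooled signal, however, high ranks in both were usual, and daf-19 was chosen by that signal. The peak of pooled rank 5, for example, ranked 5 and 6, while that of pooled rank 22 ranked 1817 and 29. Of the 140, 121 had a partner within 100 bp in both replicates, and 39 were among the 140 highest of both. The lower of the replicate ranks at daf-19 was 69, and 25 thresholded peaks, daf-19 included, had a lower rank of 69 or better. On chromosome II, which held 13 thresholded peaks, daf-19 was in place 4. The nearest other thresholded summit on that chromosome was 184436 bp away, with a signal of 45.9, rank 20372 in replicate 1 and rank 101 in replicate 2. In the authors' ce10 version of the thresholded list, with 128 peaks, the chromosome II peak nearest in signal to daf-19 had 68.8 and rank 24. That peak was picked by its signal and positions were not compared, so it is not shown to be the daf-19 peak.

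**Figure D3:**
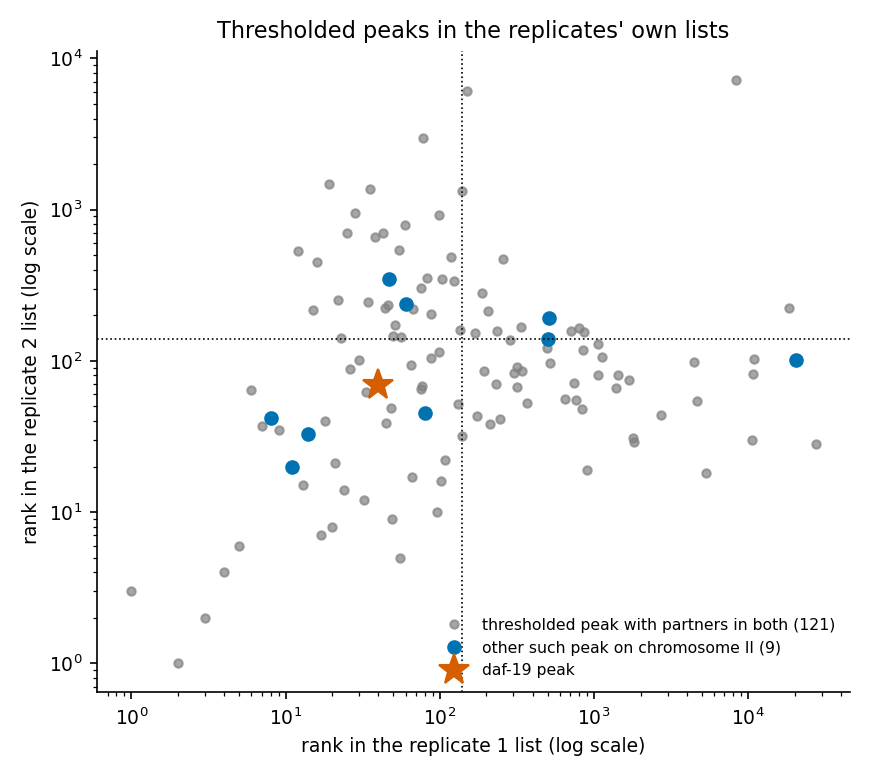
Rank in replicate 1 against rank in replicate 2 (both log scales) for the 121 thresholded peaks with a partner in both lists, with the daf-19 peak at 40 and 69 and the other such peaks on chromosome II marked. Dotted lines are at rank 140, and the daf-19 peak is among the 39 within both.

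By distance between log10 ranks over the 3 lists, among 5459 genes with a summit in reach in each, the genes most like daf-19 were rpl-20, Y17G9B.5, serp-1.1, B0348.10 and F44E5.4. The first pair share 1 peak, with ranks of 32 in the pooled list, 39 in replicate 1 and 72 in replicate 2, and the product of rpl-20 is a large-subunit ribosomal protein. At serp-1.1 the ranks were 30, 48 and 49. At B0348.10 they were 22, 27 and 29, but the replicate 1 summit of rank 27 was 111 bp from the pooled one, and the replicate 1 summit nearest to it, 93 bp away, ranked 1817. At F44E5.4, an hsp70-family gene, they were 41, 80 and 45. Each of these peaks lay upstream of the gene, from 177 to 285 bp from the 5' end, as the daf-19 summit did at 237 bp.

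A summit upstream of the nearest 5' end was the common arrangement. Of the 88 protein-coding genes with a thresholded summit within 1000 bp, 71 had it upstream and 17 downstream or at the 5' end. Over these 71 genes the summit was a median of 365 bp away, and at 27 it was at or within the 237 bp of daf-19. Some genes share 1 summit, as rpl-20 and Y17G9B.5 do, so these are counts of genes and not of separate summits. Of the 88 genes, 22 had more than 1 group of 5' ends. The thresholded summit was at the outermost group in 13 of these, daf-19 included, and at an inner group in 9. Genes with 3 or more groups numbered 5: daf-19, K11H12.8 and unc-76, with the summit at the outermost group, and ZK470.2 and ZK1193.2, with it at an inner one.

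Neighbouring genes are further from the strongest summit than daf-19. On the 5' side the next gene is gpd-4, a glyceraldehyde-3-phosphate dehydrogenase gene on the other strand, whose 5' end is 1922 bp from that of daf-19 and 1685 bp from the summit. It had no pooled summit within 1000 bp of its 5' end. Beyond it wbp-11 and F33H1.4 had a highest pooled signal of 15.1 within 1000 bp of a 5' end, from 1 shared summit, and a summit further inside F33H1.4, at base 10176025, had 18.5. On the 3' side nlp-63, a neuropeptide gene, and pax-3, a paired-box factor gene, had no pooled summit within 1000 bp of a 5' end. A piRNA gene inside daf-19, 21ur-13428, was 846 bp from the summit downstream of d. No gene but daf-19 in this stretch had a thresholded summit within 1000 bp.

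Base composition at the strongest daf-19 summit differed from that of the weaker ones. GC content in the 200 bp around it was 53.5%, a value that 2.5% of pooled peaks reach, beside medians of 38.5% in the pooled and 50% in the thresholded list. The other 13 summits ranged from 28.5% to 49.5%, with the highest value at the summit upstream of d. In 300 bp, uninterrupted alternations of C and A (or G and T) of at least 6 bases took up 46 bases at the strongest summit. This placed it 4 among the 140 thresholded peaks, whose median was 6, and 0.0667% of pooled peaks had as many. Unlike GC content and the words below, this measure was not planned beforehand. Both summits at the 5' end of d had such runs too, with 17 bases upstream and 16 downstream, and no other summit of the stretch had any.

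Short words were looked for within 100 bp of each summit, on either strand. TGATAC is a core of SIX-family sites, and the variant TGACAC was searched as well. TCAGGTTTC, the MEF3 element that SIX-family proteins bind in mammals, was allowed 1 mismatch. The repeats GAGAGAGA and CACACACA, the GATA-type word TGATAA, the E-box CAGCTG and the X-box completed the set. The strongest summit held CACACACA and GAGAGAGA and none of the others. The nearest CACACACA began 43 bp upstream of the summit, and GAGAGAGA lay 81 bp downstream. CACACACA was found in 2.0% of pooled peaks and in 18.6% of the thresholded list, or 26 peaks (95% exact binomial interval 12.5 to 26). GAGAGAGA was found in 2.46% of pooled peaks and in 27 thresholded peaks (19.3%, interval 13.1 to 26.8). The intervals cover counting error only. Both words, like high GC content, were more frequent in the thresholded than in the pooled list as a whole. Of the peaks of the 5 most similar genes, that of B0348.10 held GAGAGAGA and none held CACACACA.

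TGATAC occurred at the coding exon summit at 10159401 and at the summit near wbp-11 at 10172845, and it is in 6.69% of pooled peaks and 5.0% of thresholded peaks. TGACAC occurred at the summit at 10178989, and TCAGGTTTC at none. GAGAGAGA also occurred at the intron 2 summit at 10168029, CACACACA at the summit upstream of d, TGATAA at the intron 2 summit at 10166461 and CAGCTG at the summit near wbp-11. A match is a description of letters and not a binding site, and a missing match says only that those letters are not in that window.

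The X-box, the element that DAF-19 itself binds, occurred exactly at 3 positions of the stretch, of 694 in the genome (6.92 per Mb). One, at chrII:10169417-10169430, is 71 bp upstream of the outermost 5' end, matches on both strands and lies inside the strongest peak, its nearest base 153 bp from the summit. It is the last run of capitals in the first sequence above. Another, at chrII:10166469-10166482, is in intron 2 of a and b with its nearest base 8 bp from the summit at 10166461. The last, at chrII:10151918-10151931, is in pax-3 and in no pooled peak. With up to 1 mismatch there were 8 positions in the stretch.

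Across the map the X-box was rare in peaks, as it was in the genome, at 6.92 exact positions per Mb. Of the 30000 pooled peaks 77 (0.257%) contained an exact match in their full width, and 2 of these were at daf-19. The share in windows of the same width outside peaks was not counted, so 0.257% is not read as high or low. The strongest daf-19 peak had the highest signal of the 77, at 68.8, where the next had 30.5 and the median was 16.9, and the intron 2 peak was in place 20. It was the only one of the 140 with a thresholded signal to hold a match (0.714%, 95% exact binomial interval 0.0181 to 3.92). Within 200 bp around the summit, 0 of the 140 thresholded peaks had one, which allows a share of up to 2.14%, and 0.14% of pooled peaks did. In the 250 bp upstream of a 5' end, 87 of the 19985 protein-coding genes (0.435%) had an exact X-box, and daf-19 is one of them.

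Genes of cilia, sensory neurons and the dauer pathway, in which daf-19 acts, were compared from 6 lists with 85 genes, of which 83 were matched by symbol. The lists cover intraflagellar transport, the BBSome, the ciliary transition zone, cilia of male and IL2 neurons, regulators of sensory neurons and dauer formation. A thresholded summit within 1000 bp of a 5' end was found at 0 of the 83, which allows a share of up to 3.61%, and at 88 of 19985 protein-coding genes, 0.44%. At so low a background share the count of 0 says nothing particular to these lists. The lists are not complete. Outside them, ift-43, an intraflagellar transport gene seen among the 88 after its value was known, had a thresholded summit 478 bp upstream of a 5' end, with a signal of 46.8 and rank 130. The same summit was nearer to another gene, mdt-26, at 83 bp downstream of a 5' end. In the own lists of the replicates, 0 members were reached by the 140 highest peaks of either. Of the 19985 protein-coding genes, these peaks reached 81 in replicate 1 and 86 in replicate 2, so these counts of 0 also say nothing particular to the lists.

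A pooled summit was in reach of 46 members (55.4%), beside 53.4% of all protein-coding genes. Their highest signals had a median of 19.1, beside 17.9 over all genes, and ranged from 13.4 to 30.5. Intraflagellar transport genes, which encode the trains that carry cargo along cilia, had 10 of 24 members in reach with a median of 20.6. BBSome genes had 4 of 8 with 19, and transition zone genes, which act as a gate at the base of the cilium, had 9 of 14 with 18.1. Genes of male and IL2 cilia had 3 of 7 with 16.3, and regulators of sensory neurons had 8 of 12 with 16. Dauer formation genes had 12 of 19 with 20.5.

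The highest members were all dauer formation genes. They were daf-9, a cytochrome P450 of dafachronic acid synthesis, with a signal of 30.5 (rank 989), daf-4, a TGF-beta type II receptor, with 30.0 (rank 1085) and daf-5, a Sno/Ski-type regulator, with 29.2 (rank 1268). The signal of 68.8 at daf-19 was over these and all other members.

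**Figure D4:**
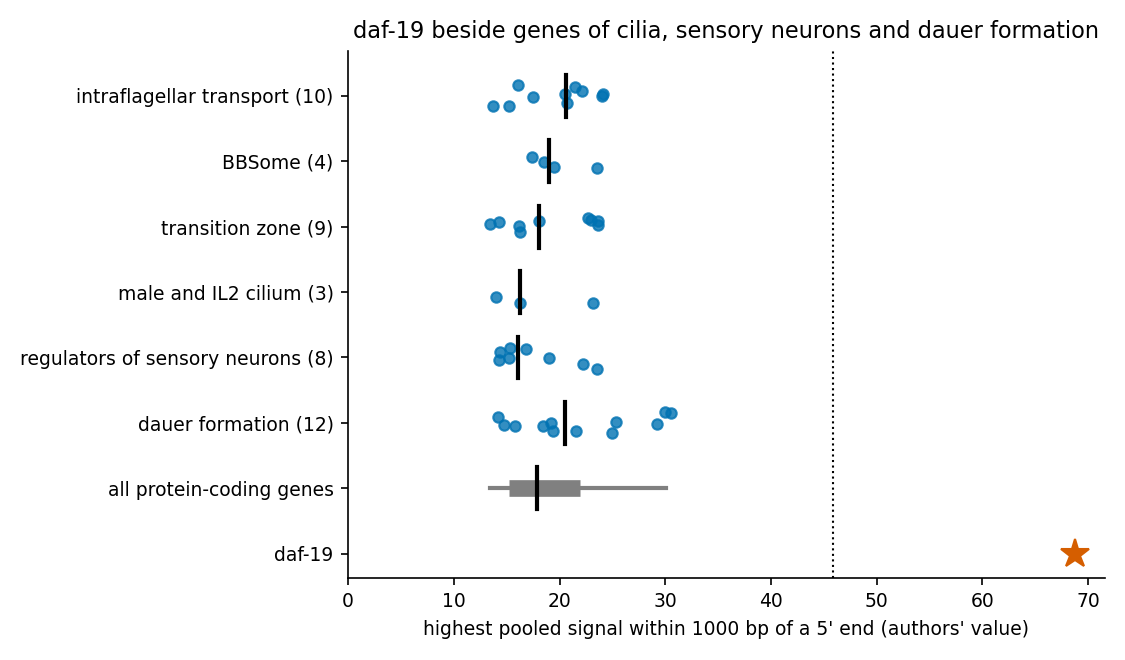
Highest pooled signal within 1000 bp of a 5' end for each list member with a summit in reach (points, number in brackets, black bar at the median), for all protein-coding genes (median, middle 50% as a thick bar, 5th to 95th percentile as a thin line) and for daf-19 (star). The dotted line is the lowest thresholded signal of 45.9, which daf-19 at 68.8 passes and no list member does.

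X-box matches were counted upstream of the list genes too, with no test of the difference from all genes. An exact X-box lay within 250 bp upstream of a 5' end in 9 of 24 intraflagellar transport genes (37.5%), 5 of 8 BBSome genes (62.5%) and 1 of 14 transition zone genes, and in 0 of 7 genes of male and IL2 cilia, 0 of 12 regulators of sensory neurons and 0 of 19 dauer formation genes. Of these 15 genes, 6 had a pooled summit in reach, with a median signal of 20.5 and a highest value of 23.5 at bbs-9, a BBSome subunit gene. None of the 15 had a thresholded summit in reach, and with a share of 0.44% over all protein-coding genes the count of 0 says nothing particular to them. Of the 88 genes with a thresholded summit in reach, 1, daf-19, had an exact X-box in this 250 bp, beside 0.435% of all genes.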

How the data were processed

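UNC-39 ChIP-seq was done by the authors on 2 replicates of L2 larvae. Per the listings deposited beside the lists, they called peaks on each replicate and on both pooled, each with a control alignment, and thresholded the pooled list by the irreproducible discovery rate. The sources used here do not name the aligner, the caller, their versions or the thresholds. The deposited signal, column 7 of narrowPeak, is an enrichment value that the authors computed for each peak, comparable only within a list. Replicate numbers follow the labels. Only the thresholded list was also read on ce10, for signal and rank, since no ce10 annotation was used.

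Summits (start plus offset) were taken in daf-19 and within 10 kb, using Ensembl release 115 and the RefSeq genome of WBcel235. A summit was in reach of a gene within 1000 bp of a protein-coding 5' end, and matched between lists within 100 bp. No tests between groups were possible. Shares have exact binomial (Clopper-Pearson) intervals at 95%, and a count of 0 is given the limit of 3 counts of the total. Depth is unknown. Named genes are daf-19, the nearest and second nearest genes to its summits and the 5 genes of most similar ranks. The 3 list members of highest signal are named too. The genes with several groups of 5' ends, bbs-9, ift-43 and mdt-26 were picked after seeing their values. The members and lists were chosen with earlier results of these data known. Python 3.11.15, pandas 2.3.3, numpy 2.4.6, scipy 1.17.1 and Biopython 1.88 were used, and the functions were tested on simulated peaks.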

Additional observations from a re-analysis of the deposited data

How the results depend on the processing

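The strongest summit stayed the only thresholded one at windows of 5 and 20 kb. Using only the upper part of the thresholded list, split at its median signal of 55.2, could not change this, as the summit had 68.8. The 5' ends of a and b were the only ones in its reach at 500 and 2000 bp. Counts of summits moved with the window. At 20 kb there were 22 in the pooled list and 19 in replicate 1, and in the gene alone there were 8 pooled, 6 in replicate 1, 6 in replicate 2 and 0 thresholded, since the strongest lies upstream of the gene. Leaving out 1 replicate, with the list of the other used alone, gave daf-19 gene ranks of 24 to 42, beside 13 in the pooled list. With each replicate's own 140 highest peaks, 0 list members were reached, beside 81 (replicate 1) and 86 (replicate 2) of 19985 protein-coding genes. At 2000 bp 1 list member, daf-12, a nuclear receptor gene of the dauer pathway, was reached, beside 151 of 19985 protein-coding genes. At so low a background share this count says nothing particular to the lists. In 100 bp around the strongest summit 0 words were found whole. The nearest CACACACA, 43 to 50 bp upstream, is at the edge of that width, so this count turns on where exactly the edge is set. In 400 bp there were 3, the X-box being added. With 5' ends over 2000 bp apart taken as separate groups, an alternative chosen after seeing the data, 6 genes had the thresholded summit at the outermost group and 7 at an inner one, beside 13 and 9. Shares of pooled peaks with a word rose with the width searched. Depth is unknown, so no limit on weak summits in either replicate can be given.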
